A study of Mus musculus with 8 samples.

Results

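Kcnj16, Nid2, Mpzl1, Mxi1 and Wdfy1 are 5 genes that stood lower in Kupffer cells of transgenic (TG) mice than in those of wild-type (WT) mice. They are 5 of 24786 gene symbols in the count files, and all 5 passed the filter on low counts, which 15254 genes passed. They were chosen by their levels in Kupffer cells, because both TG Kupffer libraries lay below both WT Kupffer libraries, so their difference in that comparison is a description and carries no test. That order held for 17.7% of the genes tested. Polyadenylated RNA of macrophages from the liver of C57BL/6 mice was sequenced in 8 libraries, 2 per group. The groups were TG Kupffer cells, WT Kupffer cells, TG monocyte-derived macrophages (MoM) and WT MoM. TG mice carry dnTGFβRII, a dominant-negative type II receptor for TGF-β that blunts TGF-β signalling in T cells, and develop cholangitis. The transgene is driven by the Cd4 promoter, so the macrophages themselves are not its intended target. The labels give no age or sex, and they leave unsaid if each replicate is its own animal, so p-values measure the spread between libraries, which may be technical.

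Kupffer cells line the liver sinusoids, where they are renewed locally and hold a gene programme set by signals of the liver niche, while MoM derive from circulating monocytes. The 5 genes share no pathway and serve at different places in the cell. Kcnj16 encodes Kir5.1, an inwardly rectifying potassium channel subunit that works by pairing with a partner, foremost Kir4.1 (Kcnj10). Nid2 encodes nidogen-2, a secreted glycoprotein that links laminin to collagen IV in basement membranes. Mpzl1 encodes PZR, a membrane glycoprotein whose phosphorylated tail binds the phosphatase SHP-2 (Ptpn11). Mxi1 encodes a transcriptional repressor of the MXD family that binds MAX and opposes MYC. Wdfy1 encodes an endosomal protein with WD repeats and a FYVE domain, known in mice and human cells as an adaptor that brings TRIF to Toll-like receptors 3 and 4.

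Libraries held 26190194 to 30308132 counts, so that 1 count equalled 0.0330 to 0.0382 CPM, the count scaled to a common library total. Levels below are CPM after TMM scaling, and are compared between libraries, never between genes. Beside the genotype, 3 libraries stood apart in markers of other cells. The 13 Kupffer markers (all 13 with counts in every library) had summed levels of 34460 and 17062 CPM in TG Kupffer cells, against 35791 and 37345 CPM in WT Kupffer cells. Their sums were 1071 and 694 CPM in TG MoM, against 11294 and 531 CPM in WT MoM, so that Kupffer markers were high in MoM WT replicate 1. The 13 endothelial markers, none of them at 0 in any library, had sums of 12552 CPM in Kupffer TG replicate 2 and 7761 CPM in MoM WT replicate 1. The other 6 libraries had sums of 473 to 3295 CPM. The 8 neutrophil markers and the 9 monocyte markers had sums of 3880 and 4542 CPM in MoM TG replicate 2, against 122 to 588 and 726 to 1736 CPM in the other MoM libraries. Without that library the 5 genes kept their signs in TG against WT MoM except Wdfy1, and the part of these cells in the results was not tested. As checks of the labels, Clec4f, a Kupffer lectin, had 2736 to 12314 CPM in Kupffer libraries, and in MoM libraries 33.3 to 125 CPM save for 3599 CPM in WT replicate 1. Ccr2, the monocyte chemokine receptor, had 128 to 460 CPM in MoM and 3.88 to 13.1 CPM in Kupffer libraries. Csf1r, the macrophage growth factor receptor, had at least 610 CPM in every library. The 8 macrophage markers had sums of 2387 to 9843 CPM in MoM libraries, against 15397 to 26331 CPM in Kupffer libraries. The 7 dendritic cell markers had sums of 1218 to 1734 CPM in MoM libraries, against 57.7 to 255 CPM in Kupffer libraries. The part of dendritic cells in the MoM levels was not tested. Tgfbr2, the receptor that the transgene mimics, had 319 and 289 CPM in TG against 349 and 345 CPM in WT Kupffer cells, and 249.04 and 178 CPM in TG against 232 and 174 CPM in WT MoM. Kdr, an endothelial receptor, reached 1107 CPM in Kupffer TG replicate 2 and 946 CPM in MoM WT replicate 1. In bulk RNA, fewer cells of a type and less RNA per cell cannot be told apart.

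Promoter windows (250 bases before to 50 after a start site, RefSeq, GRCm38.p6) were at hand for 3 of the 5 genes. They are shown because Kcnj16 and Mpzl1 had closely matching levels over the libraries while Mxi1 had not. The choice of the genes in the Kupffer libraries is a part of such likeness. The window of the most upstream start is given for each, with matches to TGGGAA, the core letters bound by the Notch effector RBPJ, in capitals (TTCCCA where the match is on the other strand).
Kcnj16: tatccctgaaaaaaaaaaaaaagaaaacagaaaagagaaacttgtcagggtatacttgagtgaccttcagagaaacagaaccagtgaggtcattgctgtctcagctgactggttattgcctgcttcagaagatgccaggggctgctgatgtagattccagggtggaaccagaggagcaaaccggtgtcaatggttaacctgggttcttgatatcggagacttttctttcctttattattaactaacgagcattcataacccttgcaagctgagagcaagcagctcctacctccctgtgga
Mpzl1: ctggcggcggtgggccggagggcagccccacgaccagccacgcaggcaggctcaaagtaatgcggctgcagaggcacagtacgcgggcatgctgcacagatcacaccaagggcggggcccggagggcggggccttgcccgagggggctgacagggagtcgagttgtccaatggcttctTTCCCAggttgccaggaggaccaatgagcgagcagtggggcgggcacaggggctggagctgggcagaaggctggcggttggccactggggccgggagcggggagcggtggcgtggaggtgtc
Mxi1: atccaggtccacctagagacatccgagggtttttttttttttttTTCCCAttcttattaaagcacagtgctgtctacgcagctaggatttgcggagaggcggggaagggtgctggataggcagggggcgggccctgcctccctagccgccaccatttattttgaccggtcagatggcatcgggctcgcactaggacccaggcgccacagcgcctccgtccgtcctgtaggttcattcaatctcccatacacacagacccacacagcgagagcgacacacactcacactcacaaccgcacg
The window of Kcnj16 is on the plus strand of chr11:110967783-110968082, that of Mpzl1 on the minus strand of chr1:165634492-165634791, and that of Mxi1 on the plus strand of chr19:53310256-53310555. TGGGAA occurred once in the windows of Mpzl1 and Mxi1, 72 and 206 bases before the start, and not in that of Kcnj16. With the downstream starts it was in 5 of the 8 windows listed for these 3 genes, 2 of them of Kcnj16, and on either strand it is in 25.6% of all 32851 windows. The letters CACGTG, to which MAX dimers bind, occurred in none of the 8 windows and in 7.15% of all windows. GAGGAA, core letters of PU.1 sites, occurred in 1 of the 8 windows, at a downstream start of Mxi1, and in 28.3% of all windows. ACGTG, the core bound by hypoxia-inducible factors and a part of CACGTG, occurred in the windows of both downstream starts of Mxi1, and in 19.6% of all windows. These matches are descriptions of letters, and counts per gene do not show which start was used.

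Kcnj16 (chromosome 11, 110968033 to 111027968, plus strand, GRCm38, GENCODE M21) had the widest gap between genotypes of the 5 genes. It had 11.8 and 7.41 CPM in the TG Kupffer libraries, against 77.7 and 80.8 CPM in the WT Kupffer libraries. The TG mean was 8.24-fold lower, with 9.62 ± 3.13 CPM in TG and 79.3 ± 2.22 CPM in WT (SD, n = 2 each). The level of both TG libraries was far below that of both WT libraries, which lay close together. In MoM it had 0.452 and 0.208 CPM in the TG libraries, against 22.6 and 0.322 CPM in the WT libraries. Thus 3 of the 4 MoM libraries were near the floor of detection, at 12, 6 and 10 counts. The exact Poisson intervals (95%, counting error only) reached no higher than 0.789, 0.453 and 0.592 CPM there. The exception was MoM WT replicate 1, the MoM library in which Kupffer markers were high.

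Nid2 (chromosome 14, 19751265 to 19811787, plus strand) had 38.8 and 11.0 CPM in the TG Kupffer libraries, against 118 and 117 CPM in the WT Kupffer libraries. The TG mean was 4.73-fold lower, and the 2 TG libraries differed 3.52-fold between themselves while the WT libraries were nearly equal. The fitted log2 fold change of -2.24 ± 0.78 (SE) accordingly became -3.45 without TG replicate 1 and -1.55 without TG replicate 2. In MoM it had 6.48 and 4.51 CPM in the TG libraries, against 27.7 and 7.21 CPM in the WT libraries. The 3′ end of Nid2 overlaps Rtraf on the other strand (19811351 to 19823824), whose reads cannot be told apart there if counting ignored strand.

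Mpzl1 (chromosome 1, 165592240 to 165634538, minus strand) had 25.8 and 30.5 CPM in the TG Kupffer libraries, against 52.7 and 69.0 CPM in the WT Kupffer libraries. Its TG mean was 2.16-fold lower, and its WT libraries were the least alike of the 5 genes in that group. In MoM it had 2.71 and 5.38 CPM in the TG libraries, against 29.3 and 5.98 CPM in the WT libraries. As with Kcnj16 and Nid2, the highest MoM level was that of MoM WT replicate 1.

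Mxi1 (chromosome 19, 53310518 to 53375810, plus strand) had 40.1 and 35.6 CPM in the TG Kupffer libraries, against 79.0 and 70.7 CPM in the WT Kupffer libraries, a 1.98-fold lower mean. In MoM the order was the other way round, with 58.4 and 52.0 CPM in the TG libraries against 46.8 and 41.2 CPM in the WT libraries. Its 4 groups did not overlap at any step of their order, which ran from WT Kupffer cells through TG MoM and WT MoM down to TG Kupffer cells. Mxi1 was the only one of the 5 genes for which no neighbouring groups overlapped. The choice of the genes set the order of the Kupffer groups, and the share of all genes with 4 groups apart was not counted.

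Wdfy1 (chromosome 1, 79702262 to 79776143, minus strand) had 18.0 and 18.4 CPM in the TG Kupffer libraries, against 38.0 and 40.2 CPM in the WT Kupffer libraries, a 2.15-fold lower mean with little spread in either group. In MoM it had 21.99 and 24.4 CPM in the TG libraries, against 26.4 and 19.4 CPM in the WT libraries, so that the genotypes overlapped there. The MoM libraries all lay between the TG and the WT Kupffer libraries, but the share of all genes with that order was not counted. The 5′ end of Wdfy1 overlaps Mrpl44 on the other strand (79776018 to 79781445).

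**Figure D1:**
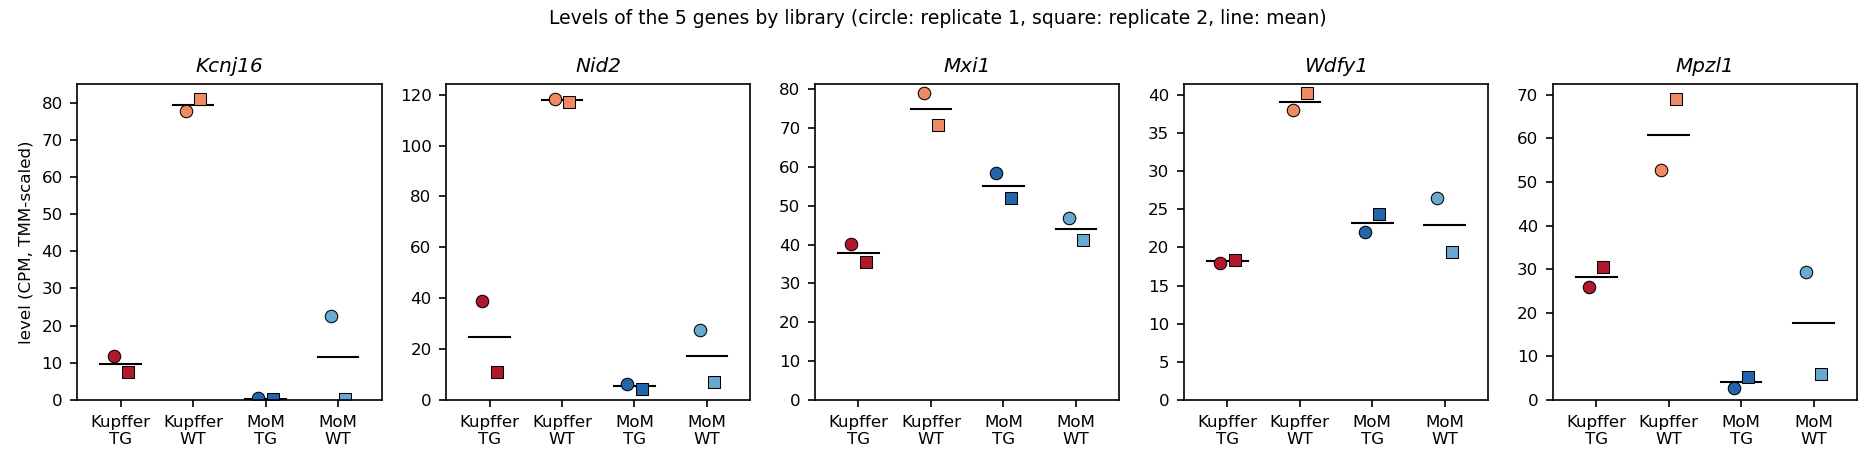
Levels of the 5 genes in CPM (vertical axes, starting at 0, 1 scale per gene) in each library of TG and WT Kupffer cells and of TG and WT MoM; circles are replicate 1, squares replicate 2 and lines group means. In Kupffer cells both TG libraries lie below both WT libraries for each gene, and for Kcnj16, Nid2 and Mpzl1 replicate 1 of WT MoM (22.6, 27.7 and 29.3 CPM) stands above the other MoM libraries.

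The gap that chose the genes was widest for Kcnj16, whose lower WT Kupffer library was 6.57-fold above its higher TG Kupffer library, against 3.02-fold for Nid2, 2.07-fold for Wdfy1, 1.76-fold for Mxi1 and 1.73-fold for Mpzl1. Among the 2124 genes with the same order and a mean of at least 5 CPM, these gaps ranked 2, 8, 20, 42 and 50. Just outside the rule, among the genes of related function listed below, was Mxd4, a repressor of the same family as Mxi1, with a gap of -0.02 (log2), that is, an overlap. The authors' deposited table for TG against WT lists 179 genes, 28 of them lower in TG. It names no cell type, but 172 of its log2 fold changes lay within 0.01 of those of DESeq2 on the 4 Kupffer libraries, and 0 of those on the 4 MoM libraries. Log2 fold changes in the authors' deposited table were -3.03 for Kcnj16 (SE 0.37), -2.22 for Nid2 (0.64), -1.09 for Mpzl1 (0.31) and -1.09 for Wdfy1 (0.26). Kcnj16 had the smallest p of the 28 lower genes in the authors' deposited table, and Mxi1 is not among its rows. Over all genes, edgeR called 0 of 15254 (0%) in this comparison, with 906 at an unadjusted p below 0.05 (5.94%), of which 192 were lower (1.26%). DESeq2 on the 4 Kupffer libraries called 190 genes (1.52%), 33 of them lower (0.263%), the 5 genes among them. DESeq2 on all 8 libraries called 259 (1.94%), 20 of them lower (0.15%), with Mxi1 and Wdfy1 among them and Kcnj16, Nid2 and Mpzl1 not. Since this comparison chose the genes, nothing is read from these counts.

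Because Kupffer markers also differed between libraries, each gene's level was set beside theirs as a share of the mean WT Kupffer level. In Kupffer TG replicate 1 the 13 markers stood at a median of 97.8% (45.4% to 768%), while Kcnj16 stood at 14.9%, Nid2 at 33.0% and Mpzl1 at 42.4%, below all 13. Wdfy1 stood at 46.0% and Mxi1 at 53.6% there, each above 1 of the 13, the haptoglobin-haemoglobin receptor Cd163. In Kupffer TG replicate 2, where endothelial markers were high, the markers stood at a median of 50.8% (19.0% to 463%). Kcnj16 at 9.35% and Nid2 at 9.36% lay below all 13 in that library. Mxi1 at 47.5%, Wdfy1 at 46.9% and Mpzl1 at 50.04% lay in the middle of the marker range there, above 6 of 13. The top of both ranges was Marco, a scavenger receptor. The shares of Kcnj16 and Nid2 were lower than those of every marker in both TG libraries. Those of the other 3 genes were so in replicate 1 alone or in neither. The genes were chosen for low levels in these TG libraries and the markers were not, so nothing is read from this order. In MoM WT replicate 1 the markers stood at a median of 30.5% (24.0% to 67.6%), Kcnj16 at 28.5% and Nid2 at 23.5%. Mpzl1 stood at 48.1%, Mxi1 at 62.4% and Wdfy1 at 67.6% in that library. In the other 3 MoM libraries, Kcnj16 had at most 0.570% and Mxi1 and Wdfy1 at least 49.5% of the WT Kupffer level. The part of Kupffer cell content or endothelial RNA in these levels was not tested.

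**Figure D2:**
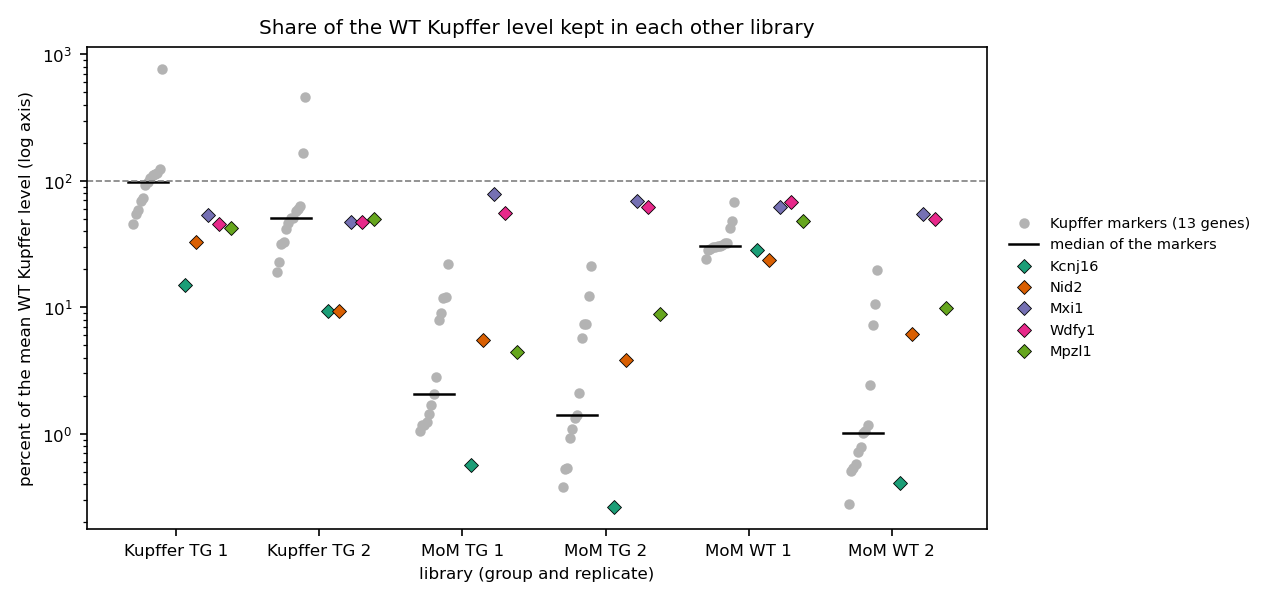
Level of each gene as a percent of its mean in the 2 WT Kupffer libraries (vertical axis, logarithmic) in the 6 other libraries; grey points are the 13 Kupffer markers, the black line is their median, diamonds are the 5 genes and the dashed line marks the WT Kupffer mean. Kcnj16 (14.9% and 9.35%) and Nid2 (33.0% and 9.36%) lie below every marker in the TG Kupffer libraries. The genes, unlike the markers, were chosen for low levels in those libraries. Kcnj16 (28.5%) lies near the marker median (30.5%) in MoM WT replicate 1.

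The genotype comparison in MoM used libraries that played no part in choosing the genes. None of the 5 genes passed edgeR's quasi-likelihood test with Benjamini-Hochberg adjustment there, and 0 of 15254 genes (0%) did, with 987 at an unadjusted p below 0.05 (6.47%), of which 466 were lower (3.05%), Kcnj16 and Mpzl1 among them. Nid2 and Mpzl1 were lower in both TG MoM libraries than in both WT MoM libraries, an order that 20% of all genes tested had. Kcnj16 had a log2 fold change of -5.11 ± 1.72 in MoM (edgeR adjusted p = 0.755; TG libraries below the WT libraries in 3 of 4 pairings). DESeq2 called it lower on all 8 libraries (adjusted p = 0.0164; 141 genes called, 1%, and 74 lower, 0.525%) and on the 4 MoM libraries (adjusted p = 0.0325; 218 genes called, 1.41%, and 134 lower, 0.864%). That value rested on MoM WT replicate 1, without which the log2 fold change of Kcnj16 was 0.035 ± 0.58. Mpzl1 had -2.12 ± 0.74 (edgeR adjusted p = 0.755), which became -0.56 without that library, and Nid2 had -1.67 ± 0.78 (edgeR adjusted p = 0.757), which became -0.38. Mxi1 had 0.33 ± 0.18 (edgeR adjusted p = 0.784), with both TG libraries above both WT libraries, an order whose share over all genes was not counted. Wdfy1 had 0.02 ± 0.22 (edgeR adjusted p = 0.994), and its sign changed when either MoM TG replicate 2 or MoM WT replicate 2 was left out.

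The comparison of MoM with Kupffer cells was made on the mean of the 2 genotypes, which is not the difference that chose the genes. It uses the same Kupffer libraries, however, so its p-values for these genes are not wholly free of that choice. Nid2 and Mpzl1 were lower in MoM, and the values of Kcnj16 were lower still but failed the threshold. Nid2 averaged 5.49 ± 1.39 CPM in TG MoM and 24.9 ± 19.7 CPM in TG Kupffer cells, and 17.4 ± 14.5 CPM in WT MoM and 118 ± 0.735 CPM in WT Kupffer cells (SD, n = 2 each). Its log2 fold change was -2.47 ± 0.56 (edgeR adjusted p = 0.0316). Mpzl1 averaged 4.05 ± 1.89 CPM in TG MoM and 28.1 ± 3.28 CPM in TG Kupffer cells, and 17.6 ± 16.5 CPM in WT MoM and 60.9 ± 11.6 CPM in WT Kupffer cells. Its log2 fold change was -2.29 ± 0.52 (edgeR adjusted p = 0.0316). These 2 of 5 genes stand against 18.7% of all genes called, with 1228 lower in MoM (8.05%) and 1617 higher (10.6%). The call on Nid2 ended when Kupffer TG replicate 1, either Kupffer WT library, either MoM TG library or MoM WT replicate 2 was left out (adjusted p = 0.0503 to 0.107). That on Mpzl1 ended without either Kupffer WT library or either MoM TG library (adjusted p = 0.0762 to 0.112).

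Kcnj16 had -3.82 ± 1.12 (edgeR adjusted p = 0.0607) in that comparison. Without MoM WT replicate 1 its log2 fold change was -6.39 ± 0.46 (edgeR adjusted p = 0.00491), and with DESeq2 on all libraries it was called too (adjusted p = 0.00017; 26.5% of genes called, 12.8% lower). With the replicate number as a block its value was -4.36 ± 1.11 and it was likewise called (adjusted p = 0.0466; 20.8% of genes called, 9.11% lower). Without both libraries high in endothelial markers its value was -6.61 ± 0.36 (edgeR adjusted p = 0.000885; 31.7% of genes called, 15.2% lower). In the 3 MoM libraries other than MoM WT replicate 1, the levels of Kcnj16, Nid2 and Mpzl1 were below those of all 4 Kupffer libraries, an order that 17.8% of genes had. Neither Mxi1 (-0.11 ± 0.13, edgeR adjusted p = 0.572) nor Wdfy1 (-0.21 ± 0.16, edgeR adjusted p = 0.381) passed the test, and neither did so under any alternative. All 5 genes, then, had their highest levels in Kupffer libraries of WT mice, and Kcnj16, Nid2 and Mpzl1 had low levels in 3 of 4 MoM libraries. Mxi1 and Wdfy1 had MoM levels that lay, in all 4 libraries, between those of TG and WT Kupffer cells. The choice of the genes left a gap there in which other libraries may fall. The share of all genes with this order was not counted.

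**Figure D3:**
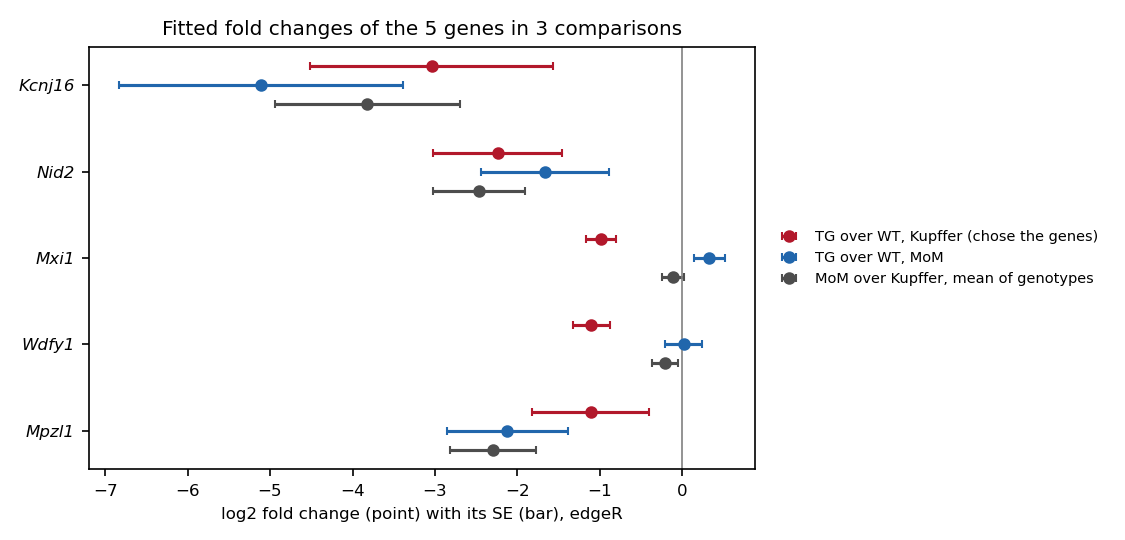
Log2 fold changes of the 5 genes (points, horizontal axis) with their SE (bars) from edgeR in TG over WT Kupffer cells, in TG over WT MoM, and in MoM over Kupffer cells averaged over the genotypes. In TG over WT Kupffer cells the values are a description, since that comparison chose the genes; Mxi1 (0.33) and Wdfy1 (0.02) lie at or above 0 in MoM, and Kcnj16 (-5.11) has the widest bar.

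Over the 8 libraries the 5 genes fell, as a description only, into the same pair of patterns. On log2(CPM + 0.5), Pearson's r was 0.96 between Kcnj16 and Nid2, 0.96 between Kcnj16 and Mpzl1 and 0.88 between Nid2 and Mpzl1, and it was 0.90 between Mxi1 and Wdfy1. Between the 2 sets it ran from 0.25 (Mxi1 with Mpzl1) to 0.72 (Nid2 with Wdfy1). These coefficients describe 8 libraries that share the split into subsets and the high Kupffer markers of MoM WT replicate 1. They also include the Kupffer libraries in which the genes were chosen. The order of TG below WT there is common to the 5 genes by choice, so nothing is read from the size of r. By the same measure, the 3 genes most like Kcnj16 were Tomt (r = 0.995), Epor, the erythropoietin receptor (0.992), and Pald1 (0.990). Epor had 6.20 and 4.42 CPM in the TG Kupffer libraries, against 13.3 and 13.03 CPM in the WT Kupffer libraries. Most like Nid2 were Abcb4, a phospholipid transporter (0.983), Dnal4 (0.982) and Slc27a6, a fatty acid transporter (0.982). Abcb4 had 8.43 and 4.13 CPM in the TG Kupffer libraries, against 35.2 and 28.6 CPM in the WT Kupffer libraries. Most like Mpzl1 were Pyroxd2 (0.994), Anapc15, a subunit of the anaphase-promoting complex (0.992), and Trpv4, a calcium-permeable cation channel (0.991). Anapc15 overlaps Tomt on the other strand, and reads of these genes cannot be told apart there if counting ignored strand. Trpv4 had 25.2 and 17.1 CPM in the TG Kupffer libraries, against 37.6 and 55.6 CPM in the WT Kupffer libraries. Most like Mxi1 were Lpxn, the adaptor leupaxin (0.941), Pola1, the catalytic subunit of DNA polymerase alpha (0.931), and Tgfbr1, the type I receptor for TGF-β (0.924). Tgfbr1 had 87.6 and 69.5 CPM in the TG Kupffer libraries, against 177 and 160 CPM in the WT Kupffer libraries. Most like Wdfy1 were Tsc1, an inhibitor of mTORC1 (0.955), and Ndor1 (0.936). These genes were picked for their likeness to genes that were themselves chosen in the same Kupffer libraries, so nothing is read from their order there.

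Genes of related function were followed as lists, with calls by edgeR unless DESeq2 is named. The shares of all genes called between MoM and Kupffer cells, 8.05% lower and 10.6% higher, apply to each list. Of 16 called list genes that were refitted without 1 library at a time, each lost its call in 2 to 7 of the 8 fits. Among the other inward rectifier genes, 5 of 14 passed the low-count filter. In MoM against Kupffer cells 2 of the 5 were called lower and 0 higher. The median log2 fold change was 0.69, against 0.09 over all genes, and it was 0.042 without MoM WT replicate 1 and -0.83 without MoM TG replicate 2. These were Kcnj10 (-4.51 ± 0.73, edgeR adjusted p = 0.016) and Kcnj9, a subunit of G-protein-gated channels (-2.76 ± 0.60, edgeR adjusted p = 0.0291). In TG against WT, 0 of 5 were called in Kupffer cells or in MoM, by edgeR or DESeq2. In MoM the smallest p was that of Kcnj2, which encodes Kir2.1 (1.25 ± 0.53, edgeR adjusted p = 0.757). Kcnj10, the partner of Kcnj16, had 191 and 95.4 CPM in the TG Kupffer libraries, against 153 and 144 CPM in the WT Kupffer libraries, so the genotypes overlapped (log2 fold change -0.05 ± 0.89, edgeR adjusted p = 0.998). In MoM, Kcnj10 had 5.16 and 1.74 CPM in the TG libraries, against 20.6 and 2.96 CPM in the WT libraries. Whether the change of Kcnj16 differed from that of Kcnj10 was not tested. Kcnj9 was the only other rectifier with both TG Kupffer libraries (10.2 and 2.18 CPM) below both WT Kupffer libraries (15.7 and 13.6 CPM).

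Of 23 other basement membrane genes, 21 passed the filter, and edgeR called 0 in either genotype comparison. DESeq2 on the 4 MoM libraries called 2 lower in TG, the collagen gene Col4a3 (-4.36 ± 1.00, adjusted p = 0.00352) and the laminin gene Lamc3 (-4.62 ± 1.28, adjusted p = 0.032), and on all libraries it called 0. Col4a3 had 0.113 and 0.139 CPM in the TG MoM libraries, against 3.27 and 1.93 CPM in the WT MoM libraries. In TG against WT Kupffer cells 20 of the 21 had positive values, with a median of 2.81 against 0.03 over all genes. That median was -1.26, with 19 of 21 negative, without Kupffer TG replicate 2, where endothelial markers were high. Nid1, the other nidogen, had 2.91 and 208 CPM in the TG Kupffer libraries, against 4.53 and 9.03 CPM in the WT Kupffer libraries. Among the Kupffer libraries it thus stood high only in that where endothelial markers summed to 12552 CPM, a library in which Nid2 had its lowest Kupffer level. In MoM, Nid1 had 17.7 and 60.2 CPM in the TG libraries, against 132 and 55.4 CPM in the WT libraries. All 21 had negative values in TG against WT MoM (median -1.78, or -1.23 without MoM WT replicate 1), and 20 of 21 did without MoM TG replicate 2 (median -3.28). In MoM against Kupffer cells 1 was called, higher (Lamb3, a laminin chain, with at most 0.933 CPM in any library), and 0 lower (median 1.22). That median was 3.67 without Kupffer TG replicate 2 (0.10 over all genes) and 3.22 without both libraries high in endothelial markers (0.11). Without MoM TG replicate 2 it was 0.61 (-0.0021 over all genes). The widest separation of TG below WT Kupffer libraries was that of Col4a4, which overlapped (gap -0.29, log2).

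Of the 14 other genes of the MYC, MAX and MXD network, all passed the filter. None was called in either genotype comparison, by edgeR or DESeq2 (medians 0.13 in Kupffer cells and 0.08 in MoM, against 0.03 and -0.04 over all genes). The Kupffer median was -0.037 without Kupffer TG replicate 2, and the MoM median was -0.17 without MoM TG replicate 2. In MoM the smallest p was that of Mga, a MAX partner (0.67 ± 0.21, edgeR adjusted p = 0.755). Max, which Mxi1 needs for binding DNA, had 119 and 132 CPM in the TG Kupffer libraries, against 106 and 106 CPM in the WT Kupffer libraries. Myc had 84.3 and 55.8 CPM in the TG Kupffer libraries, against 79.98 and 98.9 CPM in the WT Kupffer libraries, which overlapped. Mnt, another MAX-binding repressor, had the widest separation of the list, with 77.6 and 43.6 CPM in TG and 105 and 88.0 CPM in WT Kupffer cells. In MoM against Kupffer cells 2 were called, both higher: Mxd1 (1.55 ± 0.42, edgeR adjusted p = 0.0498) and Mxd3 (0.98 ± 0.26, edgeR adjusted p = 0.0465), repressors of the family of Mxi1. The call on Mxd1 ended with the replicate block (adjusted p = 0.0626), with other size factors (0.0563), with no filter (0.0536) and in 7 of 8 fits without 1 library (up to 0.185, by edgeR). That on Mxd3 ended with no filter (edgeR adjusted p = 0.0691) and in 7 of those 8 fits. Of 16 genes raised by or sensing hypoxia, a list on which Mxi1 is often counted, edgeR called 0 in either genotype comparison. DESeq2 on all libraries called 1 higher in TG Kupffer cells, Ndrg1 (4.51 ± 1.19, adjusted p = 0.0165), and on the 4 Kupffer libraries it called 0. Ndrg1 had 4.42 and 212.3 CPM in the TG Kupffer libraries, against 3.95 and 5.53 CPM in the WT Kupffer libraries, so that 1 library, the one high in endothelial markers, was high. The list's median was 0.55 in Kupffer cells, against 0.03 over all genes, and 0.028 without that library. In MoM it was 0.16, against -0.04 over all genes, with the smallest p for the glucose transporter gene Slc2a1 (1.18 ± 0.33, edgeR adjusted p = 0.755). In MoM against Kupffer cells 3 were called higher and 2 lower. Among them were Vegfa, the endothelial growth factor (3.53 ± 0.66, edgeR adjusted p = 0.0211), Ddit4 (1.46 ± 0.35, edgeR adjusted p = 0.0367) and P4ha1, a collagen prolyl hydroxylase (-1.29 ± 0.26, edgeR adjusted p = 0.0253). P4ha1 also had the widest separation of the list in Kupffer cells, with 174 and 144 CPM in TG and 226 and 217 CPM in WT libraries.

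Of 12 genes of FYVE proteins and their lipid kinases, relatives of Wdfy1 in the endosome, edgeR called 0 in either genotype comparison. In Kupffer cells 11 of the 12 had negative values (median -0.23 against 0.03 over all genes) and 6 had both TG libraries below both WT libraries, an order that 17.7% of genes tested had. Without Kupffer TG replicate 2, 10 of the 12 were negative (median -0.11). Wdfy3, an autophagy adaptor, had 796 and 200.1 CPM in the TG Kupffer libraries, against 913 and 881 CPM in the WT Kupffer libraries. In MoM against Kupffer cells 2 were called higher, Wdfy4, which serves cross-presentation in dendritic cells (1.91 ± 0.24, edgeR adjusted p = 0.0104), and Zfyve9, a binder of TGF-β receptors and SMADs (1.37 ± 0.24, edgeR adjusted p = 0.0179). Lower were Pikfyve, a lipid kinase (-1.27 ± 0.23, edgeR adjusted p = 0.0192), and Wdfy3 (-2.47 ± 0.55, edgeR adjusted p = 0.0305). Dendritic cell markers were also higher in MoM libraries, and their part in the call on Wdfy4 was not tested. Wdfy4 had the widest separation of the list in Kupffer cells, with 327 and 193 CPM in TG and 366 and 374 CPM in WT libraries. Zfyve9 had the smallest p of the list in TG against WT MoM, with 96.6 and 69.3 CPM in TG and 17.2 and 28.5 CPM in WT (1.86 ± 0.34, edgeR adjusted p = 0.618). DESeq2 called it higher in TG MoM on all libraries (adjusted p = 0.00587) and on the 4 MoM libraries (adjusted p = 0.0104), the only gene of the list so called in a genotype comparison. Of 10 genes of the TLR3, TLR4 and TRIF route, 0 were called in either genotype comparison by edgeR or DESeq2, and 0 had both TG Kupffer libraries below both WT Kupffer libraries. Tlr4 was lower in MoM than in Kupffer cells (-2.28 ± 0.41, edgeR adjusted p = 0.0189) and Traf6 higher (1.14 ± 0.25, edgeR adjusted p = 0.0296). In TG against WT MoM the smallest p was that of Tlr3 (-1.56 ± 0.58, edgeR adjusted p = 0.755). The widest separation in Kupffer cells was that of the adaptor gene Ticam2, which overlapped (gap -0.15, log2).

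Of 13 relatives of Mpzl1 and genes of SHP-2 signalling, 12 passed the filter and 0 were called in either genotype comparison by edgeR or DESeq2 (medians -0.12 in Kupffer cells and 0.34 in MoM). The Kupffer median was 0.08 without Kupffer TG replicate 2. Sos1, an activator of RAS, had the smallest p in MoM (0.83 ± 0.20, edgeR adjusted p = 0.755), and the widest separation in Kupffer cells, with 38.6 and 37.3 CPM in TG and 46.9 and 43.01 CPM in WT libraries. Ptpn11, which encodes SHP-2, had 142 and 101 CPM in the TG Kupffer libraries, against 138 and 140 CPM in WT Kupffer cells, an overlap. In MoM against Kupffer cells Mpzl3 was called higher (4.61 ± 0.84, edgeR adjusted p = 0.0195). It had at most 0.627 CPM in Kupffer libraries, near the floor of detection, and at most 4.82 CPM in MoM libraries. The kinase gene Src (-1.79 ± 0.32, edgeR adjusted p = 0.0189) and Sirpa, an inhibitory receptor that binds SHP-2 (-1.03 ± 0.27, edgeR adjusted p = 0.0464), were called lower. The call on Sirpa ended in 7 of the 8 fits without 1 library (edgeR adjusted p = 0.0646 to 0.147).

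**Figure D4:**
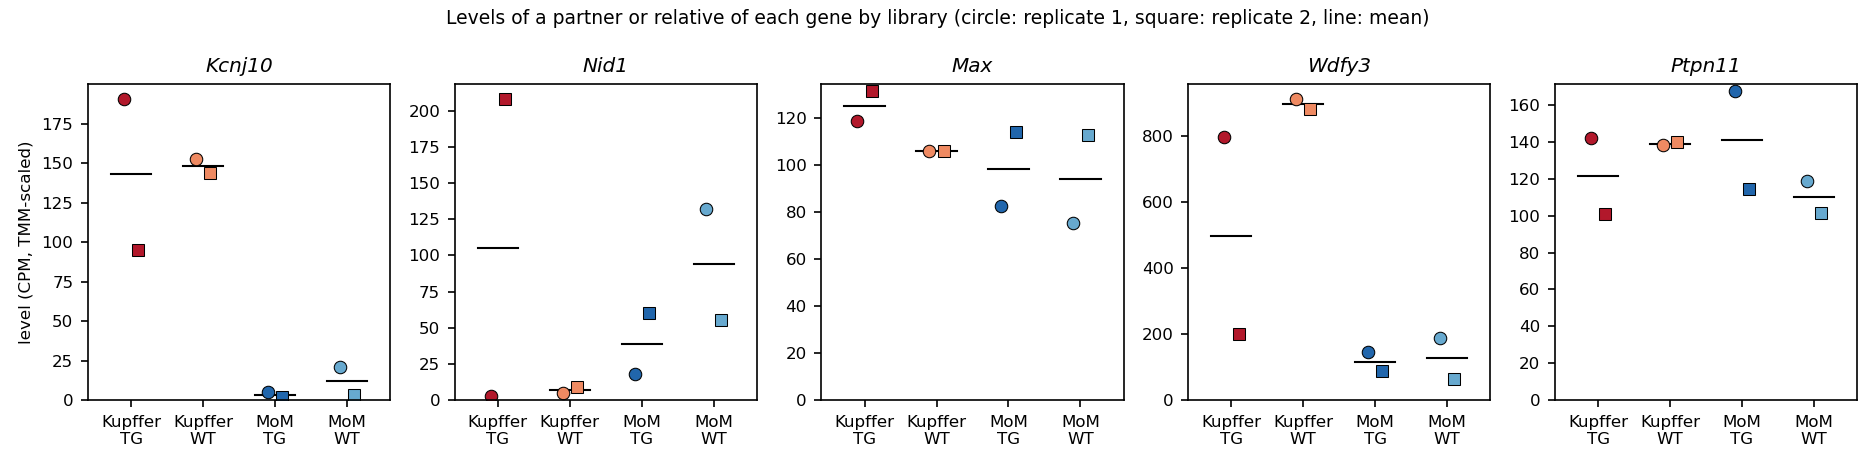
Levels in CPM (vertical axes, starting at 0, 1 scale per gene) of Kcnj10, Nid1, Max, Wdfy3 and Ptpn11, each a partner or relative of 1 of the 5 genes and chosen for that relation, by library in TG and WT Kupffer cells and in TG and WT MoM; circles are replicate 1, squares replicate 2 and lines group means. Kcnj10 stands high in all Kupffer libraries (95.4 to 191 CPM), and Nid1 stands high in Kupffer TG replicate 2 (208 CPM) and MoM WT replicate 1 (132 CPM).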

How the data were processed

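RNA of liver macrophages was read as 8 libraries, and titles gave their groups. STAR 2.5.2b aligned the reads to mm10, per the submitters' processing notes. How genes were counted, by which annotation and with or without strand, is not given in the sources used here. In the count tables the deposited values are raw counts per gene symbol, without normalization. The authors' deposited table has, per gene, the log2 fold change and its SE, a raw and an adjusted p-value, a Wald statistic (a score) and a mean of normalized counts, per the file headers.

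All 8 libraries were fitted with 4 groups in edgeR 4.0.16 (R 4.3.3), with filterByExpr, TMM and the quasi-likelihood F-test, after the fit was tested on simulated data. Benjamini-Hochberg adjustment ran over 15254 genes, and calls were made below 0.05. The alternatives tried were DESeq2's size factors in edgeR, fitting without the filter, the replicate number as a block, only the 4 libraries compared, DESeq2 1.42.0, each library left out, and both libraries high in endothelial markers left out. DESeq2 on only the 4 libraries compared, and the lists without MoM TG replicate 2, were added after seeing the data. The 5 genes, the lists and the named genes (the 3 highest r per gene, up to 3 called genes per list or else the smallest p, the widest Kupffer gap per list, and Clec4f, Kdr, Ccr2, Csf1r and Tgfbr2 as checks of the labels) were chosen with earlier results of these data known. For Wdfy1, 1 gene that this rule names is not reported here. Nid1, Max, Myc, Wdfy3, Ptpn11, Mxd4, Lamc3, Ndrg1 and the markers Cd163 and Marco were named outside that rule, after their values were seen. Of counts from 1 to 19, 65.0% to 68.0% were even per library, so 1 fragment may give 2 counts and counting intervals may be too narrow. Figures used matplotlib 3.10.9.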

Additional observations from a re-analysis of the deposited data

Results flagged for a closer look

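Mxi1 was singled out because every TG library lay below every WT library in Kupffer cells, while every TG library lay above every WT library in MoM. Its log2 fold change was -0.98 in TG over WT Kupffer cells and 0.33 in TG over WT MoM. The difference between these effects was not tested, since the Kupffer comparison chose the gene. The share of all genes with the MoM order was not counted, so the pair of orders is only a description.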

How the results depend on the processing

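For genotype in MoM, edgeR called 0 genes under each of its alternatives, the 8 fits without 1 library included (0 to 0), and DESeq2 called 141 on all libraries and 218 on the 4 compared. For genotype in Kupffer cells, edgeR called 0 genes except without Kupffer TG replicate 1 (range 0 to 257 over the 8 fits without 1 library), and DESeq2 called 259 and 190. For MoM against Kupffer cells, 2845 genes were called, 84 (without Kupffer WT replicate 2) to 4458 (without Kupffer TG replicate 2) without 1 library, with over 1.5 times fewer also without Kupffer TG replicate 1 (1815), Kupffer WT replicate 1 (152), MoM TG replicate 1 (371), MoM TG replicate 2 (698) or MoM WT replicate 2 (1185), 4414 with DESeq2 and 4972 without both libraries high in endothelial markers. The fits without 1 library assume that the lone remaining library of a group varies like the other groups. The replicate number as a block gave 3171 calls between subsets and 0 in both genotype comparisons. The numbers share no stated source, and the replicate 1 deviations of pairs of groups correlated at -0.19 to 0.66, so pairing is not established. Among the 5 genes the block changed only the call on Kcnj16 between subsets.

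In TG over WT MoM, Kcnj16 ran from -6.09 to 0.035 over the fits without 1 library, its sign turning without MoM WT replicate 1, and was 0.0043 without both libraries high in endothelial markers. Wdfy1 ran from -0.19 (without MoM WT replicate 2) to 0.27 and was -0.06 without MoM TG replicate 2. The causes were not tested. Over the 5 genes and the named list genes, among tested values under alternatives, 343 kept direction and side of the threshold, 94 lost the call, 12 gained it and 4 changed sign. In TG over WT Kupffer cells the 5 genes had negative values under all 15 alternatives each, from -3.45 to -2.70 for Kcnj16, -3.45 to -1.55 for Nid2, -1.26 to -0.92 for Mpzl1, -1.10 to -0.86 for Mxi1 and -1.12 to -1.07 for Wdfy1. The choice of the genes nearly fixed that negative sign in advance, so nothing is read from it. Depth limits statements on Kcnj16 in MoM, where 3 libraries held 6 to 12 counts.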
